A study of Mus musculus with 8 samples.

Results

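The 10 genes described here are those of the classical route by which cells show internal peptides to CD8 T cells, together with the lipid-presenting molecule CD1d. They are H2-K1, H2-D1, H2-T23, B2m, Tap1, Tap2, Tapbp, Nlrc5, Erap1 and Cd1d1, chosen by name and found in the expression table through the Ensembl identifiers that GENCODE M21 gives to these symbols. All 10 were found among the 26589 genes of the table. The study profiled RNA of B cells from the spleens of IL-10-eGFP Tiger mice, whose Il10 gene carries a green fluorescent reporter. The purified B cells received lipopolysaccharide (LPS), a bacterial ligand of Toll-like receptor 4, at 3 µg/ml and were sorted on the reporter at 48 h into IL-10+ and IL-10- cells, 4 libraries of each. IL-10+ and IL-10- cells thus share the reporter allele and the LPS, no unstimulated cells are in the design, and an Il10 reporter reads transcription and not secreted protein. The labels' treatment tag says untreated, against the protocols, which were followed. The labels number the libraries 1 to 4 in each group without naming mice or cultures, so p-values measure the spread between these 8 libraries and part of that spread may be technical.

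A class I molecule is a heavy chain (H2-K and H2-D in classical form, Qa-1 from H2-T23 in non-classical form) held together with the light chain beta-2-microglobulin. The TAP1 and TAP2 transporter pumps peptides made by the proteasome into the endoplasmic reticulum, the aminopeptidase ERAP1 trims them, and tapasin (Tapbp) tethers empty heavy chains to the transporter until a fitting peptide is bound. NLRC5 is the transactivator of class I genes, and CIITA is its relative for class II genes. CD1d also pairs with beta-2-microglobulin but carries lipids and presents them to NKT cells. In the mouse spleen, CD1d at high surface level together with CD5 is a known phenotype of B cells that make IL-10.

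The libraries held 27380386 to 29968274 reads, as recovered from the deposited FPKM values (reads per length of the gene and per size of the library). Il10, the gene of the sort, averaged 36.9 ± 5.32 FPKM in IL-10+ cells and 3.17 ± 1.48 FPKM in IL-10- cells, which checks the labels and is no finding. Of the B cell markers, Cd79a averaged 593 ± 62.0 FPKM in IL-10+ cells, against 532 ± 79.3 FPKM in IL-10- cells (adjusted p = 0.385; 0.0120 with the block). Ms4a1 averaged 88.1 ± 3.74 FPKM in IL-10+ cells, against 134 ± 5.15 FPKM in IL-10- cells, and fell, as did Pax5. Summed over the 5 plasma cell markers (Prdm1, Xbp1, Jchain, Sdc1, Tnfrsf17), the level was 276 to 364 FPKM in IL-10+ cells and 51.2 to 82.6 FPKM in IL-10- cells. All 4 tested plasma cell markers rose and 0 fell, and immunoglobulin genes held 14.6 ± 1.62% of all FPKM in IL-10+ libraries, against 4.19 ± 0.439% in IL-10- libraries. These values move with every rise described for the members, and their part in those rises was not tested. In bulk libraries, fewer cells of a type and less RNA per cell cannot be told apart. Markers of other cells were low. The sums were 0.377 to 2.20 FPKM in IL-10+ and 0.362 to 1.35 FPKM in IL-10- libraries for T cells, and at most 0.0598 FPKM (IL-10+) and 0.0225 FPKM (IL-10-) for NK cells. For macrophages they were 6.26 to 10.1 FPKM in IL-10+ and 6.36 to 10.9 FPKM in IL-10- libraries, nearly all from Cd68, with 3 of the 5 markers below 0.5 FPKM in every library. For dendritic cells they were 9.60 to 13.2 FPKM in IL-10+ and 11.3 to 16.1 FPKM in IL-10- libraries, mostly from Flt3.

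All 10 members passed the filter on low values. Their mean levels spanned B2m at 1595 ± 91.7 FPKM in IL-10+ cells, against 1349 ± 74.6 FPKM in IL-10- cells (mean ± SD, n = 4 libraries in each group here and below) down to Cd1d1 at 5.30 ± 0.487 FPKM in IL-10+ cells, against 3.37 ± 0.358 FPKM in IL-10- cells. Summed over the 10 genes, the level was 2734 to 3291 FPKM in IL-10+ and 2335 to 2786 FPKM in IL-10- libraries. B2m and Cd1d1 rose in IL-10+ cells and 0 members fell (limma on log2(FPKM + 1), Benjamini-Hochberg adjusted p under 0.05 over all tested genes). Among all 11329 tested genes 19.7% were called, 10.6% as higher and 9.18% as lower in IL-10+ cells, so 2 of 10 is near the background. The median log2 change of FPKM + 1 over the members was 0.17, against -0.057 over all tested genes.

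**Figure D1:**
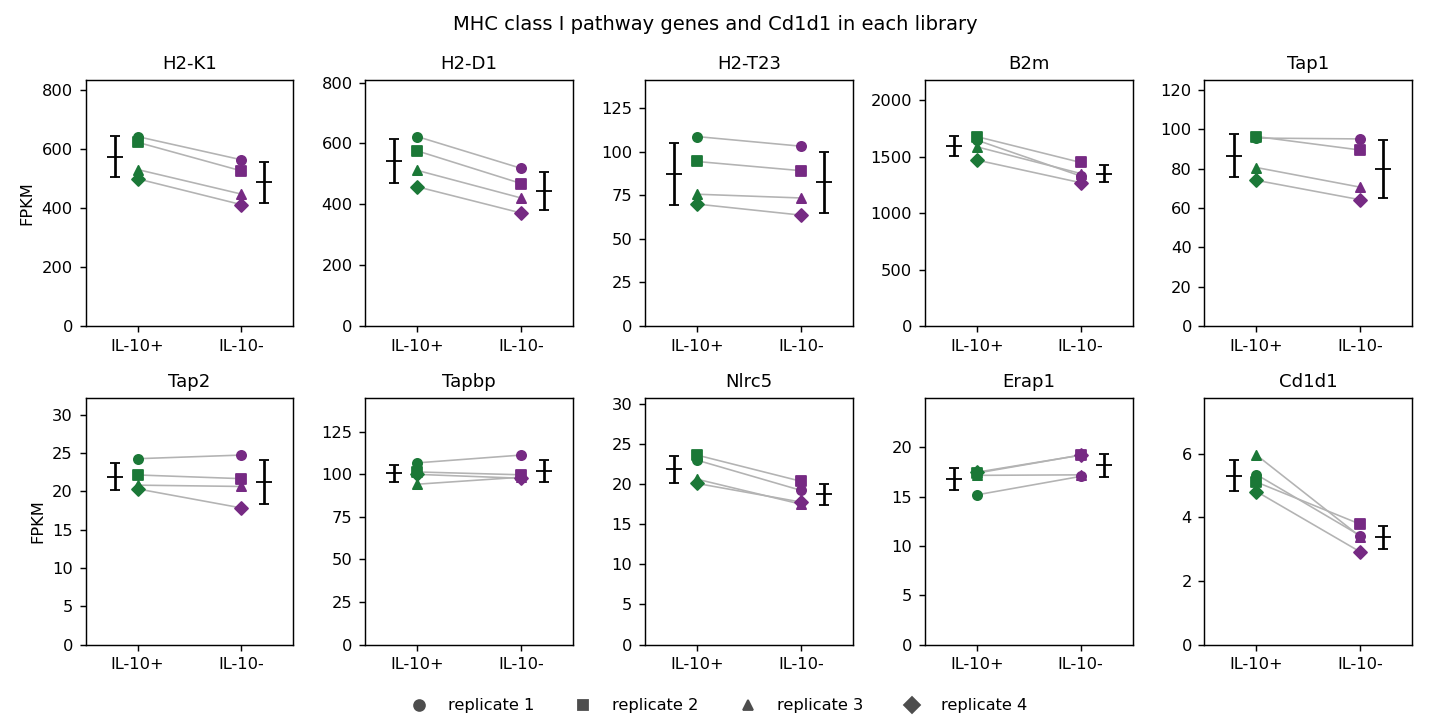
FPKM of the 10 members in the 4 IL-10+ (green) and 4 IL-10- (purple) libraries, with the mean and SD of each group as bars and a line joining libraries of the same replicate number. Within a number, 7 members are higher in the IL-10+ library in all 4 numbers, beside 24.3% of all tested genes. The IL-10+ and IL-10- values are apart without overlap for B2m and Cd1d1, as for 12.2% of all tested genes in this direction.

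Libraries of the same number moved together in both groups, as the lines of that plot show. For 7 members (H2-K1, H2-D1, H2-T23, B2m, Tap1, Nlrc5 and Cd1d1) the IL-10+ library was the higher one in all 4 numbers, a pattern that 24.3% of all tested genes had. Erap1 was lower in IL-10+ cells in all 4 numbers, as were 40.4% of all tested genes. With the replicate number as a block in the same fit, these 7 members rose and Erap1 fell, while Tap2 and Tapbp were not called. That fit called 53.7% of all tested genes, 20.4% as higher and 33.3% as lower. The pairing was read from the data, since the labels do not state it.

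H2-K1 (ENSMUSG00000061232, chromosome 17, 33996017 to 34000347 of GRCm38, minus strand) encodes a classical class I heavy chain. Its FPKM in replicates 1 to 4 was 643, 624, 532 and 499.9 in IL-10+ cells and 565, 527, 448 and 412 in IL-10- cells. The groups overlap, since replicates 3 and 4 of IL-10+ lie among the IL-10- values, yet within each number the IL-10+ library is higher by a ratio of 1.14 to 1.21. The log2 change was 0.24 (SE 0.124, adjusted p = 0.223), with a 95% interval of -0.045 to 0.52. With the block the interval was 0.17 to 0.31 and the adjusted p 0.00144.

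H2-D1 (ENSMUSG00000073411, chromosome 17, 35262730 to 35267499, plus strand) encodes the second classical heavy chain, and it followed the same order of libraries. It stood at 622, 575, 511 and 457 FPKM in IL-10+ replicates 1 to 4 and at 518, 468, 421 and 371 FPKM in IL-10- replicates 1 to 4. Here too the groups overlapped while each number showed the IL-10+ library higher, by 1.20 to 1.23. The ratio of means was 1.22 and the log2 change 0.29 (SE 0.128, adjusted p = 0.162), and the block gave an adjusted p of 0.000524. Exact two-sided permutation tests, which ignore the numbers, gave p = 0.143 for both heavy chains. The H2-D1 to H2-K1 ratio of FPKM was 0.942 ± 0.0269 in IL-10+ and 0.911 ± 0.0217 in IL-10- cells.

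Both heavy chain genes and B2m hold, in the 250 bases before the RefSeq start of the gene, letters of the elements through which class I genes are known to be controlled. They are printed because these 3 members have the highest levels of the 10 and similar ratios between the groups. The choice thus rests on those values, and a link between the letters and the ratios was not tested. Tap1, whose ratio of means was 1.09, is set beside them. The sequences are RefSeq's for GRCm38.p6, 5′ to 3′ on the gene's own strand. Capitals mark matches on either strand to an NF-kB site (GGGNNTTNCC), an interferon regulatory factor core (AANNGAAA), a cAMP response element core (TGACG) and a CCAAT box (CCAAT, or ATTGG on the other strand), and no marked match overlaps another.

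H2-K1 at chr17:34000348-34000597, minus strand: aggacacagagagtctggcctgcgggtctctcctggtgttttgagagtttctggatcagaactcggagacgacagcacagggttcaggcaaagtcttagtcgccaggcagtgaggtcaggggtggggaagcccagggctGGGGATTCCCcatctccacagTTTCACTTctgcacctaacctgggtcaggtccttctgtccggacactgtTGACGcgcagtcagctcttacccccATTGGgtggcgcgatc
H2-D1 at chr17:35262844-35263093, plus strand: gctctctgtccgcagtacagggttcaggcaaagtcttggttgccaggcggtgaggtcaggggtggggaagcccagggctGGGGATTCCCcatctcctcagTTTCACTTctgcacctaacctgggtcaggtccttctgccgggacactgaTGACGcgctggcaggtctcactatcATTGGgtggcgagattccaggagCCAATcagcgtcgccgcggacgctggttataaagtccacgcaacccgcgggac
B2m at chr2:122147437-122147686, plus strand: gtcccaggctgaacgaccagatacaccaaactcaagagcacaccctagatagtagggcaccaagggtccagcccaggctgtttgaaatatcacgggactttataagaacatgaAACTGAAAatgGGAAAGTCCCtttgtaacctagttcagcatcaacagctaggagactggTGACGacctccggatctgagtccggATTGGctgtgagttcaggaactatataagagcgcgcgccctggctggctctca
Tap1 at chr17:34187306-34187555, plus strand: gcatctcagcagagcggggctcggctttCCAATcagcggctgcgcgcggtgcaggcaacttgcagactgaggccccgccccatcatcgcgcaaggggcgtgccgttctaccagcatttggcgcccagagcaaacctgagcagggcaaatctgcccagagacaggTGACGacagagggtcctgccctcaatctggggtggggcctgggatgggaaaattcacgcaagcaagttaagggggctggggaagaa

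In H2-K1 and H2-D1 the order is the same: the NF-kB letters, the interferon regulatory factor core 21 bases further on, TGACG 70 bases after the NF-kB letters, and ATTGG 25 bases after TGACG, first base to first base. B2m has the interferon regulatory factor core before its NF-kB letters, which lie on the other strand, and the same 25 bases between TGACG and ATTGG. Tap1 has TGACG and a CCAAT box far from each other and neither of the other motifs. Of the 7 members with a promoter in the table, 3 hold the NF-kB letters, 4 the interferon regulatory factor core, 4 TGACG and 6 a CCAAT box. Among 32851 mouse promoter windows of the same length the shares are 4.11%, 21.3%, 17.8% and 33.8%. The motifs were picked as known class I elements, and the H2-K1 and H2-D1 windows have long stretches alike, so the counts are a description and no test. TGACG followed by ATTGG at 25 bases, a spacing picked out after these windows were read, occurs in 30 of the 32851 windows (0.0913%). The 22 genes of the expression table with this pair include H2-K1, H2-D1 and B2m, from which the spacing was read. Another is H2-M3, also a class I heavy chain, which was not called (limma adjusted p = 0.397). They also include genes outside the class I pathway, such as Calu, Nasp and Per1. Of the searched members not printed, H2-T23 (ratio of means 1.06) holds the interferon regulatory factor core and a CCAAT box, Tapbp a CCAAT box and Erap1 none. These matches describe letters and not bound sites, and Tap2, Nlrc5 and Cd1d1 were not searched.

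H2-T23 (ENSMUSG00000067212, chromosome 17, 36029773 to 36032855, minus strand) encodes the heavy chain of Qa-1, which is read by the NK receptor pair CD94 and NKG2A. It had 109, 94.4, 75.6 and 69.95 FPKM in IL-10+ replicates 1 to 4 and 103, 89.1, 73.5 and 63.6 FPKM in IL-10- replicates 1 to 4. The spread between numbers is far wider than the step within a number, a ratio of 1.03 to 1.10, smallest in replicate 3. The log2 change was 0.083 (SE 0.182, adjusted p = 0.793; 0.0444 with the block).

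B2m (ENSMUSG00000060802, chromosome 2, 122147686 to 122153083, plus strand) encodes the light chain shared by class I, Qa-1 and CD1d, and its place among all genes by FPKM was between 13 and 22 in every library. IL-10+ replicates 1 to 4 had 1646, 1678, 1587 and 1469.8 FPKM, and IL-10- replicates 1 to 4 had 1328, 1448, 1350.3 and 1269 FPKM. The lowest IL-10+ library lies just above the highest IL-10- library, so the groups do not overlap, as in 12.2% of all tested genes in this direction. B2m was 1.18-fold higher in IL-10+ cells, a log2 change of 0.24 (SE 0.0678, adjusted p = 0.0375), with p = 0.0286 in an exact two-sided permutation test, the lowest value possible with 4 libraries against 4. Leaving out each library in turn kept the call in 2 of 8 fits, those without IL-10+ replicate 4 or without IL-10- replicate 2, with adjusted p from 0.0293 to 0.110 over the 8 fits. The call was also lost without the filter on low values (adjusted p = 0.436). With the block the adjusted p was 0.00255.

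The ratio of mean FPKM between IL-10+ and IL-10- cells was 1.18 for B2m, 1.18 for H2-K1 and 1.22 for H2-D1. Summed FPKM of H2-K1 and H2-D1 per FPKM of B2m was 0.698 ± 0.0552 in IL-10+ and 0.691 ± 0.0878 in IL-10- cells. B2m thus had more FPKM than both heavy chains together in the mean of each group. The annotated exons of each gene together span 2938 bases for H2-K1, 2579 for H2-D1 and 860 for B2m. A single transcript may be shorter than that, so numbers of transcripts cannot be compared from these values. In that ratio replicate 1 was the highest of its group in both, at 0.769 in IL-10+ and 0.815 in IL-10- cells.

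Tap1 (ENSMUSG00000037321, chromosome 17, 34187553 to 34197225, plus strand), the first subunit of the peptide pump, had 95.5, 96.3, 80.5 and 74.0 FPKM in IL-10+ replicates 1 to 4, against 95.1, 89.4, 70.5 and 64.1 FPKM in IL-10- cells. Replicate 1 is nearly equal in both groups and the others are higher in IL-10+, so the ratio within a number ran up to 1.15. The log2 change of Tap1 was 0.13 (SE 0.145, adjusted p = 0.593; 0.0429 with the block). Tap2 (ENSMUSG00000024339, chromosome 17, 34203527 to 34216321, plus strand), the partner subunit, had 24.2, 22.1, 20.8 and 20.3 FPKM in IL-10+ and 24.7, 21.6, 20.6 and 17.8 FPKM in IL-10- replicates 1 to 4. The ranges overlap almost wholly, and the 95% interval of the log2 change was -0.19 to 0.28, or -0.054 to 0.15 with the block (adjusted p = 0.785 and 0.364). Tap1 stood at 3.95 ± 0.295 times the FPKM of Tap2 in IL-10+ and 3.75 ± 0.309 times in IL-10- cells.

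Tapbp (ENSMUSG00000024308, chromosome 17, 33915899 to 33929292, plus strand), which encodes tapasin, had the smallest change of the members. Its FPKM was 107, 101, 94.1 and 99.9 in IL-10+ and 111, 99.6, 98.2 and 97.6 in IL-10- replicates 1 to 4. The numbers did not share a direction, and the log2 change of -0.016 (SE 0.0693, adjusted p = 0.901) turned to 0.015 and 0.018 under the other scalings of the libraries. Its 95% interval was -0.17 to 0.14, and with the block -0.090 to 0.058, so a change as large as that of H2-D1 lies outside it.

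Erap1 (ENSMUSG00000021583, chromosome 13, 74639568 to 74693201, plus strand) was the member that stood lower in IL-10+ cells in every number. The trimming enzyme had 15.2, 17.4, 17.2 and 17.5 FPKM in IL-10+ replicates 1 to 4 and 17.1, 19.2, 17.2 and 19.2 FPKM in IL-10- replicates 1 to 4. Replicate 1 is the lowest IL-10+ library by a clear gap, and replicate 3 is nearly equal in both groups. The log2 change was -0.11 (SE 0.0725, adjusted p = 0.351), and the fall with the block (adjusted p = 0.0497) was not called when the block was combined with either other scaling.

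Nlrc5 (ENSMUSG00000074151, chromosome 8, 94434356 to 94527272, plus strand), the class I transactivator, had 23.002, 23.6, 20.6 and 20.1 FPKM in IL-10+ replicates 1 to 4, against 19.2, 20.4, 17.5 and 17.8 FPKM in IL-10- replicates 1 to 4. IL-10- replicate 2 reaches just above IL-10+ replicate 4, and within each number the IL-10+ library is higher by 1.13 to 1.20. The ratio of means was 1.17 and the log2 change 0.21 (SE 0.0785, adjusted p = 0.0981; 0.00182 with the block), and the exact two-sided permutation p was 0.0571.

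Ciita, which encodes the class II transactivator, went the other way. It had 17.9, 15.6, 13.4 and 14.8 FPKM in IL-10+ and 38.04, 28.3, 25.6 and 24.3 FPKM in IL-10- replicates 1 to 4. Ciita fell by 0.86 on the log2 scale (SE 0.145, adjusted p = 0.00357), as 9.18% of all tested genes fell. The ratio of Nlrc5 to Ciita was therefore 1.43 ± 0.123 in IL-10+ and 0.660 ± 0.105 in IL-10- cells. Every IL-10+ library had more FPKM of Nlrc5 than of Ciita and every IL-10- library fewer. The ratio of H2-K1 to the class II chain H2-Ab1 was 0.972 to 1.12 in IL-10+ cells, against 0.594 to 0.766 in IL-10- cells. That of Tap1 to its neighbour Psmb9 was 2.11 ± 0.289 in IL-10+ and 1.98 ± 0.378 in IL-10- cells. These ratios were chosen with the values of their genes known and are given as descriptions. For that reason the exact permutation tests that were run on them are not used.

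**Figure D2:**
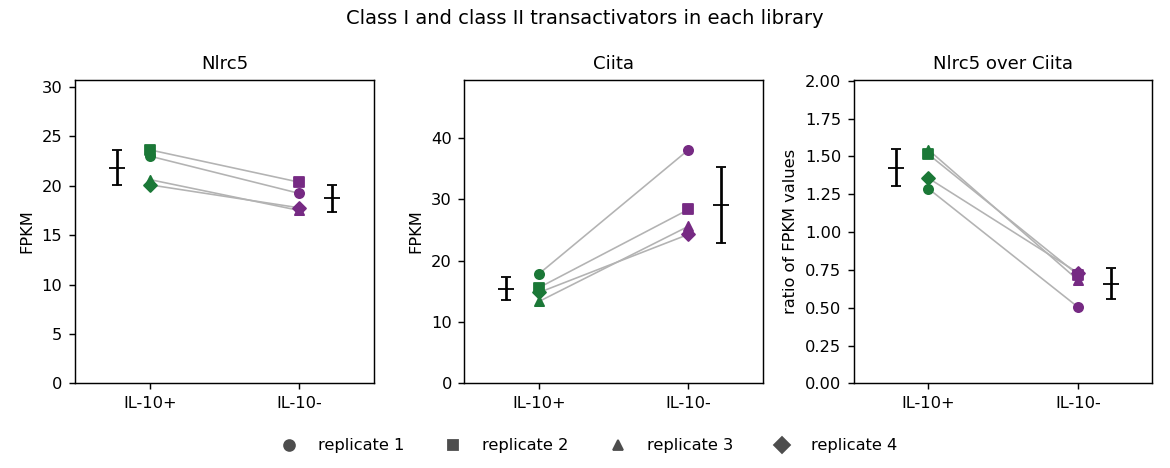
FPKM of Nlrc5 and of Ciita and the ratio of Nlrc5 to Ciita in each of the 4 IL-10+ (green) and 4 IL-10- (purple) libraries, with the mean and SD of each group and lines joining libraries of the same replicate number. The ratio averages 1.43 in IL-10+ and 0.660 in IL-10- cells, and the ranges are apart.

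Cd1d1 (ENSMUSG00000028076, chromosome 3, 86995834 to 86999441, minus strand) had the largest change of the members and the lowest level. IL-10+ replicates 1 to 4 had 5.34, 5.11, 5.96 and 4.81 FPKM, and IL-10- replicates 1 to 4 had 3.42, 3.78, 3.39 and 2.91 FPKM, from 346 to 442 reads in IL-10+ and 224 to 277 reads in IL-10- libraries. All IL-10+ libraries lie above all IL-10- libraries, and the ratio within a number was 1.35 to 1.76. Cd1d1 rose 1.57-fold, a log2 change of FPKM + 1 of 0.53 (SE 0.0848, adjusted p = 0.00281; exact two-sided permutation p = 0.0286). It was called in 8 of 8 fits that left out 1 library, with adjusted p from 0.00464 to 0.00985. The near copy Cd1d2 shares 10.5% of the 100-base stretches of Cd1d1, but it had 0.113 to 0.211 FPKM in IL-10+ and 0.0689 to 0.219 FPKM in IL-10- libraries.

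Cd5, the other surface marker named with CD1d on IL-10-making B cells, averaged 0.255 ± 0.0566 FPKM in IL-10+ cells, against 0.195 ± 0.0820 FPKM in IL-10- cells, and did not pass the filter. Cr2 (CD21), high on marginal zone B cells, averaged 9.57 ± 3.15 FPKM in IL-10+ cells, against 16.0 ± 1.65 FPKM in IL-10- cells, and fell (log2 change -0.73, adjusted p = 0.0276). Cd9, a tetraspanin of marginal zone B cells and plasma cells, rose to 11.9 ± 0.173 FPKM in IL-10+ cells, against 2.40 ± 0.379 FPKM in IL-10- cells (log2 change 1.93, adjusted p = 9.77e-06). These 3 genes were chosen after results of these data were known. Of 7 tested genes of lipid loading onto CD1d, 0 rose and 0 fell, with a median log2 change of 0.10, and 4 rose with the block. Over all tested genes 10.6% rose and 9.18% fell, and 20.4% rose with the block. Prosaposin (Psap), whose saposins exchange lipids on CD1d, had 154 ± 3.84 FPKM in IL-10+ cells, against 144 ± 6.83 FPKM in IL-10- cells (adjusted p = 0.289; 0.0399 with the block). Cathepsin S (Ctss), a lysosomal protease, had 127 ± 10.9 FPKM in IL-10+ cells, against 132 ± 20.2 FPKM in IL-10- cells (adjusted p = 0.834).

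**Figure D3:**
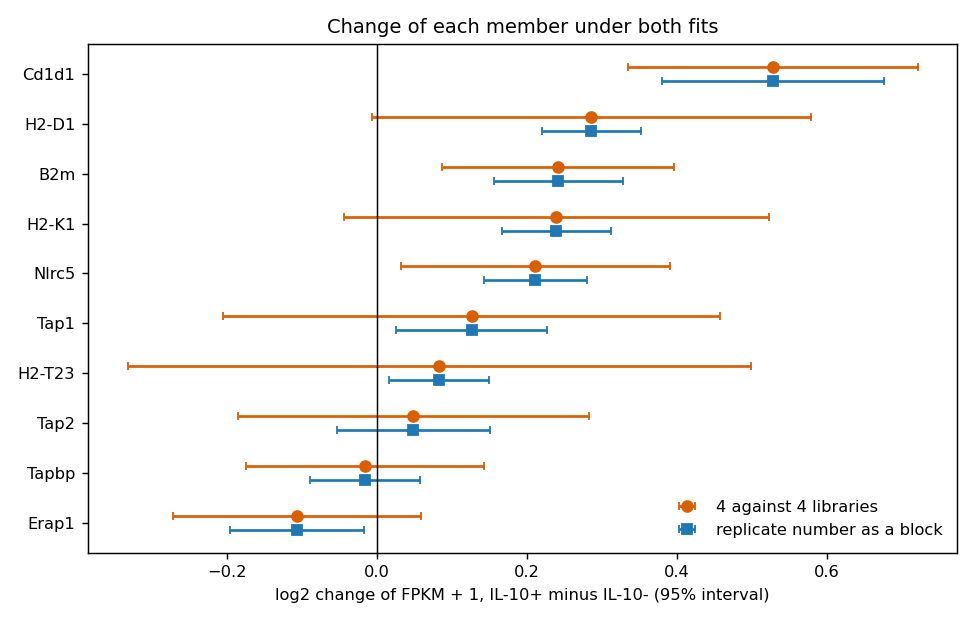
Log2 change of FPKM + 1, IL-10+ minus IL-10-, with its 95% interval for each member in the fit of 4 against 4 libraries (orange) and with the replicate number as a block (blue). Cd1d1 lies highest at 0.53, H2-D1, B2m, H2-K1 and Nlrc5 lie between 0.21 and 0.29, and the intervals of Tap2 and Tapbp span 0 in both fits.

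Libraries 1 and 2 stood apart from 3 and 4 in level, and replicates 1 and 2 were the 2 highest libraries of each group for H2-K1, H2-D1, H2-T23, Tap1, Tap2 and Nlrc5. Within replicates 1 and 2 alone 0 members were called (9.76% of all genes), and within 3 and 4 alone H2-K1 and Cd1d1 rose (23.4% of all genes). The log2 change within 1 and 2 and within 3 and 4 was 0.44 and 0.62 for Cd1d1, 0.26 and 0.22 for B2m, 0.22 and 0.26 for H2-K1, and 0.28 and 0.29 for H2-D1. For Nlrc5 it was 0.23 and 0.20. Of the members, 1 was called without the filter on low values (8.17% of all genes), 1 of 9 with a filter of 5 FPKM (22.9%), and 7 with the block joined to either other scaling (50.5% and 50.0%). The interaction of group with these sets was called for 0 of all tested genes in limma, with 315 genes and 0 members at an unadjusted p under 0.05.

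Of the other class I heavy chains, 7 of 12 in the table were tested, and H2-Q7 alone rose, to 79.7 ± 9.93 FPKM in IL-10+ cells, against 51.7 ± 6.10 FPKM in IL-10- cells (log2 change 0.62, SE 0.114, adjusted p = 0.00586). H2-Q7 encodes a Qa-2 heavy chain. Each IL-10+ library lies above each IL-10- library for it, and the ratio within a number was 1.51 to 1.59. H2-Q6, the neighbouring Qa-2 gene and the most abundant of the list, had 222 ± 29.6 FPKM in IL-10+ cells, against 204 ± 35.9 FPKM in IL-10- cells (adjusted p = 0.582; 0.0411 with the block). The median log2 change of the 7 was 0.13, and 4 rose with the block. Over all tested genes 10.6% rose, or 20.4% with the block. Since 11.98% of the 100-base stretches of H2-Q7 and 10.8% of those of H2-Q6 occur in other genes, against 0.957% for H2-K1, 3.59% for H2-D1 and 3.15% for H2-T23, the Qa-2 values are uncertain. Of the class I-like molecules, Ulbp1 was the only one of 8 tested, and this ligand of the activating NK receptor NKG2D rose to 14.7 ± 1.12 FPKM in IL-10+ cells, against 9.39 ± 0.613 FPKM in IL-10- cells (log2 change 0.60, adjusted p = 0.000646).

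The chaperones and other genes of the peptide loading and folding list, not all of them parts of the loading complex around tapasin, were higher in IL-10+ cells in all 4 numbers. Of 8 tested, 6 rose and 0 fell, all 8 rose with the block, and the median log2 change was 0.61, beside 0.17 for the members. The 2 not called without the block were calreticulin (Calr, adjusted p = 0.0516) and calnexin (Canx, adjusted p = 0.338). Over all tested genes 10.6% rose, 20.4% rose with the block, and 24.3% were higher in all 4 numbers. Hspa5 (BiP) rose to 503 ± 69.0 FPKM in IL-10+ cells, against 279 ± 58.7 FPKM in IL-10- cells (adjusted p = 0.00618). Pdia3 (ERp57), the oxidoreductase bound to tapasin, rose to 259 ± 55.9 FPKM in IL-10+ cells, against 149 ± 45.2 FPKM in IL-10- cells (log2 change 0.82, adjusted p = 0.0463), a call kept in 3 of 8 fits that left out 1 library (adjusted p from 0.0341 to 0.120) and lost under median-of-ratios scaling (0.0505) and without the filter on low values (0.111). Tapbpl (TAPBPR), a second peptide editor related to tapasin, rose to 28.0 ± 3.74 FPKM in IL-10+ cells, against 17.1 ± 3.12 FPKM in IL-10- cells (log2 change 0.69, adjusted p = 0.00811), while tapasin itself was at nearly equal levels. Glucosidase II alpha (Ganab) rose to 119 ± 3.76 FPKM in IL-10+ cells, against 82.0 ± 1.70 FPKM in IL-10- cells (adjusted p = 0.000225). Most of these chaperones serve secreted proteins of all kinds, and they rose beside the plasma cell markers given above, whose part was not tested.

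The list of peptide production and trimming, which also holds the translocon gene Sec61a1, was split. Of 11 tested genes 3 rose and 2 fell, 3 and 5 with the block, and the median log2 change was -0.068. Over all tested genes 10.6% rose and 9.18% fell, or 20.4% and 33.3% with the block. Sec61a1, the translocon channel, rose to 94.4 ± 5.80 FPKM in IL-10+ cells, against 40.3 ± 5.05 FPKM in IL-10- cells (log2 change 1.22, adjusted p = 6.35e-05). Like the chaperones, it rose beside the plasma cell markers, whose part was not tested. Tpp2, a cytosolic peptidase, averaged 19.5 ± 1.58 FPKM in IL-10+ cells, against 15.0 ± 1.61 FPKM in IL-10- cells, and rose (adjusted p = 0.0280), as did Nrd1. The immunoproteasome subunit Psmb10 fell to 30.1 ± 0.691 FPKM in IL-10+ cells, against 40.6 ± 2.40 FPKM in IL-10- cells (log2 change -0.42, adjusted p = 0.00179). Lnpep, which trims peptides in endosomes, fell to 25.4 ± 2.57 FPKM in IL-10+ cells, against 33.1 ± 4.15 FPKM in IL-10- cells (adjusted p = 0.0413). With 1 library left out, the call of Tpp2 held in 4 of 8 fits (adjusted p from 0.0182 to 0.0815) and that of Lnpep in 2 of 8 (0.0364 to 0.113). Both calls were lost without the filter (0.0530 and 0.0787), and that of Lnpep under scaling without immunoglobulin and mitochondrial genes (0.0735). The other 2 immunoproteasome subunits, Psmb8 and Psmb9, lie beside Tap1 and had log2 changes of -0.13 and 0.025 (adjusted p = 0.399 and 0.821; Psmb8 0.0247 with the block).

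Among 20 regulators of class I genes, a list without the member Nlrc5, 0 rose and 7 fell, and with the block 1 rose and 14 fell. Over all tested genes 10.6% rose and 9.18% fell, or 20.4% and 33.3% with the block. The median log2 change of the list was -0.25. Besides Ciita, the 3 of largest change were Ifngr2, a chain of the interferon gamma receptor, at 10.4 ± 1.26 FPKM in IL-10+ cells, against 16.9 ± 2.02 FPKM in IL-10- cells (adjusted p = 0.00302), and Rfx5 and Creb1. Rfx5, part of the complex on which NLRC5 and CIITA dock, fell to 5.37 ± 1.10 FPKM in IL-10+ cells, against 9.06 ± 2.27 FPKM in IL-10- cells (adjusted p = 0.0362). Creb1, a factor that binds cAMP response elements, fell to 8.73 ± 1.91 FPKM in IL-10+ cells, against 13.2 ± 2.39 FPKM in IL-10- cells (adjusted p = 0.0476). Leaving out 1 library kept the call of Rfx5 in 4 of 8 fits (adjusted p from 0.0291 to 0.0979) and that of Creb1 in 2 of 8 (0.0305 to 0.116). Both were lost without the filter (0.0881 and 0.107), and Creb1 under scaling without immunoglobulin and mitochondrial genes (0.0680). Nfya, Nfkb1 and Stat2 also fell. Irf1, the gene of this list that rose with the block, had 13.1 ± 1.93 FPKM in IL-10+ cells, against 11.1 ± 1.78 FPKM in IL-10- cells (adjusted p = 0.288, and 0.00541 with the block).

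Of 9 tested genes of class I turnover and trafficking, 1 rose and 2 fell, with the same counts under the block and a median log2 change of -0.064. Over all tested genes 10.6% rose and 9.18% fell, or 20.4% and 33.3% with the block. H13, the signal peptide peptidase, which in human cells releases the leader peptides shown by the Qa-1 counterpart HLA-E, rose to 37.0 ± 3.50 FPKM in IL-10+ cells, against 14.2 ± 0.521 FPKM in IL-10- cells (log2 change 1.32, adjusted p = 2.19e-05). March1, a ubiquitin ligase best known for removing class II and CD86 from the surface, fell to 0.8287 ± 0.287 FPKM in IL-10+ cells, against 2.45 ± 0.691 FPKM in IL-10- cells (adjusted p = 0.00510). Bcap29, an endoplasmic reticulum membrane protein, fell to 7.401 ± 0.282 FPKM in IL-10+ cells, against 8.72 ± 0.569 FPKM in IL-10- cells (adjusted p = 0.0481), a call held in 0 of 8 fits that left out 1 library (adjusted p from 0.0590 to 0.118) and lost without the filter (0.0682) and under either other scaling (0.0850 and 0.0873).

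**Figure D4:**
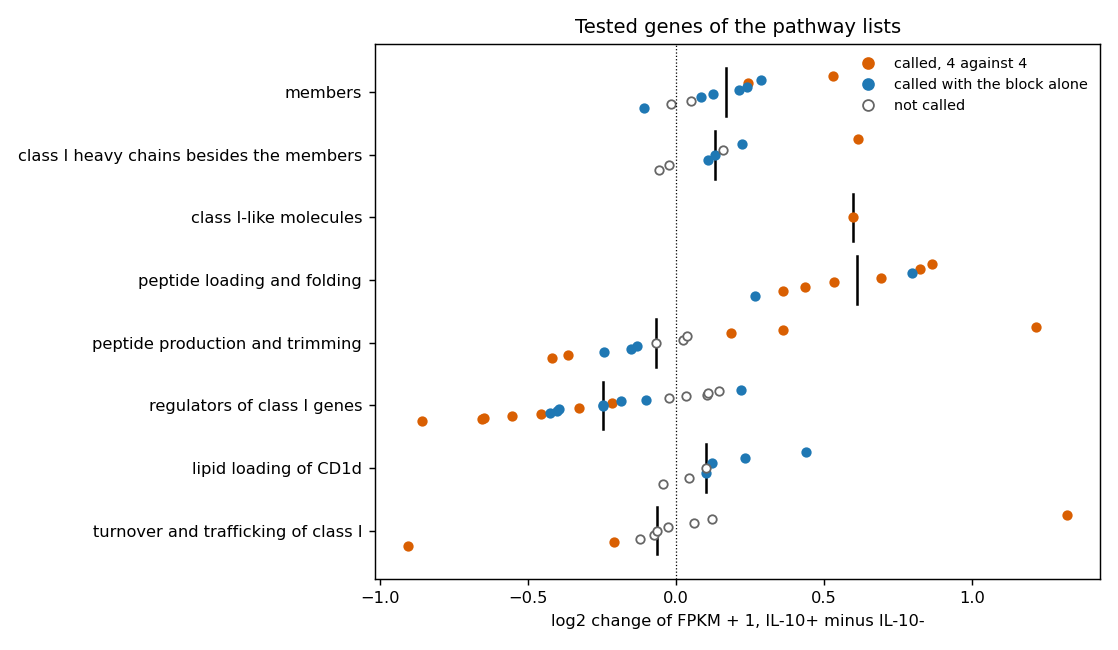
Log2 change of FPKM + 1, IL-10+ minus IL-10-, of each tested gene of the members and the 7 other lists, with the list median as a bar. Orange points were called with 4 against 4 libraries, blue points with the replicate block alone and open points in neither fit. The loading and folding genes all lie above 0. With the block 14 of the 20 regulators fell, beside 33.3% of all tested genes.

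Of the members, 6 lie in the major histocompatibility complex on chromosome 17, from Tapbp to H2-T23, and 4 lie elsewhere. In this stretch 85 of 121 coding genes were tested, of which 6 rose and 15 fell, or 14 and 38 with the block. In all tested genes 10.6% rose and 9.18% fell, or 20.4% and 33.3% with the block. The 9 tested class II genes between H2-K1 and H2-D1 were lower in IL-10+ cells in all 4 numbers, as were 40.4% of all tested genes. H2-Oa, H2-DMa, H2-DMb2 and H2-DMb1, which control peptide loading onto class II, fell by 1.14, 0.85, 0.97 and 0.81 on the log2 scale (adjusted p = 0.0180, 0.0197, 0.0265 and 0.00112). H2-Ob, the partner chain of H2-Oa, had a log2 change of -0.72 with overlapping groups (adjusted p = 0.241; 0.000138 with the block). The class II chains H2-Aa, H2-Ab1 and H2-Eb1 had log2 changes of -0.51, -0.35 and -0.52 (adjusted p = 0.0528, 0.194 and 0.0812; 0.00107, 0.00278 and 0.00121 with the block). H2-Eb2 had -0.31 (adjusted p = 0.210; 0.0257 with the block). Tap1 and Tap2, with their changes of 0.13 and 0.049, lie within the class II stretch.

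**Figure D5:**
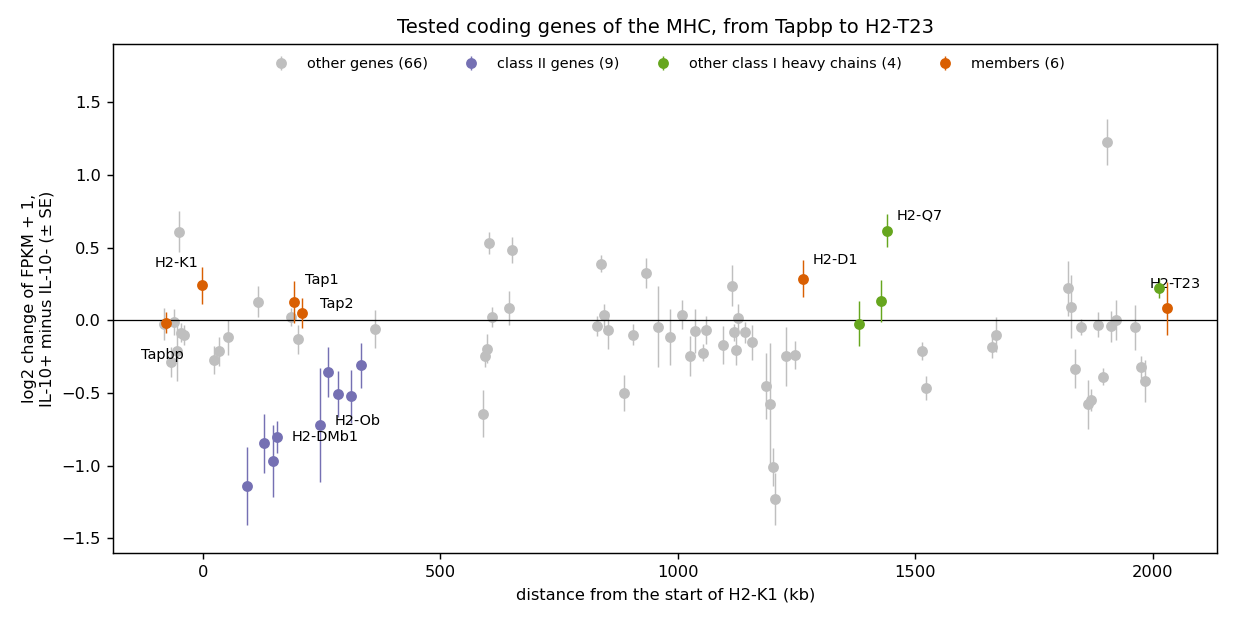
Log2 change of FPKM + 1, IL-10+ minus IL-10- (± SE), of the 85 tested coding genes of the major histocompatibility complex from Tapbp to H2-T23, against distance from the start of H2-K1 in kb. The 6 members lie between -0.016 and 0.29, the class II genes lie below 0, and H2-Q7 is at 0.62.

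The genes whose levels followed single members most closely were not members themselves. Over the 8 libraries, Pearson r of log2(FPKM + 1) with H2-K1 was highest, among 9595 genes, for Ubb, Eif5, Mindy1, Tmem167b and Tlk1, at 0.990 to 0.987. H2-D1 came 7th at 0.986, Tap1 136th at 0.943, and B2m 840th at 0.799. For Nlrc5 the closest were Ppp6r3, C2cd5, Cnpy2, Tbc1d31 and C9orf72, at 0.990 to 0.986, with B2m 129th at 0.930. For Cd1d1 they were Csrp1, Anxa5, Gdap2, Rap1gap and Fgl2, at 0.987 to 0.976. All 5 rose in IL-10+ cells, which their selection for following Cd1d1 brings with it and is no separate result. The 8 libraries share 2 groups and 4 numbers, so these correlations are a description and rest on both.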

How the data were processed

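RNA of 4 IL-10+ and 4 IL-10- libraries of sorted mouse splenic B cells was sequenced. The values are FPKM deposited by the authors, 1 table of 26589 genes. The build was mm10, and HISAT2 2.1.0 and HTSeq 0.6.0 are named as tools, per the submitters' processing notes. Annotation release, strandedness and the treatment of shared reads were not given in the sources used here. Without strand, reads of genes that overlap on opposite strands cannot be told apart. Of the members, 5 overlap a gene above 1 FPKM, among them Tap1 with Psmb9 (212 bases), Tapbp with Zbtb22 (3422 bases) and Erap1 with Cast (834 bases). Tapbp and Zbtb22 lie on the same strand, so strand would not separate their shared bases. Identifiers were named from GENCODE M21 (26517 found, 72 not). Each column was matched to a library through that library's description, and groups and numbers came from the titles.

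In each library at least 93.4% of values above 0, times gene length and 1 library total, gave whole reads within 0.05, which recovered totals of 27380386 to 29968274 reads. For 8 of the 10 members they were whole within 0.05, and not for H2-K1 and Tapbp. The worth of 1 read in 1 kb was thus 0.0334 to 0.0365 FPKM. No libraries of a group were near copies (chi-square per degree of freedom 9.00 to 82.9).

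The fit of IL-10+ against IL-10- libraries used limma 3.58.1 (R 4.3.3) and log2(FPKM + 1), a pseudocount of 1 that understates changes of low genes, with a variance trend, over the 11329 genes that reached 1 FPKM in 4 or more libraries. Calls took a Benjamini-Hochberg adjusted p under 0.05 over all tested genes. Folds without a log2 scale are ratios of mean FPKM. Deviations from group means correlated across genes, at 0.71, 0.58, 0.62 and 0.70 for replicates 1 to 4, each library matching its own number best, so the numbers were taken to pair the libraries, from the data and not the labels. Blocked values are given where they change a call.

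The members and lists were chosen with earlier results of these data known. Named were the members; in each list up to 4 called genes of largest change, with the 2 most abundant genes added to a list with under 2 calls; and the 5 genes most correlated with H2-K1, Nlrc5 and Cd1d1, leaving out predicted genes and immunoglobulin segments. Class II genes, Cd5, Cr2, Cd9, Calr, Canx, Psmb8, Psmb9, Nrd1, Nfya, Nfkb1, Stat2 and Irf1 were added after their values were seen. Alternatives were a pseudocount of 0.1, no filter, a filter of 5 FPKM, median-of-ratios scaling, scaling without immunoglobulin and mitochondrial genes, the block alone and with each scaling, each library left out, and replicates 1 and 2 or 3 and 4 alone. Promoters are RefSeq's, GRCm38.p6. Some items of the marker lists are not reported here.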

Additional observations from a re-analysis of the deposited data

Results flagged for a closer look

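Dixon's test of the highest and lowest library was run in 60 groups of 4 libraries, of which 3 were marked, and chance marks about 1 in 20 such groups. Erap1 in IL-10+ replicate 1 had 15.2 FPKM, the lowest of its group, with the gap to its nearest neighbour at 0.862 of the group's range. Tpp2 in IL-10+ replicate 1 was the lowest of its group at 17.2 FPKM (0.830 of the range). Tapbp in IL-10- replicate 1 was the highest of its group at 111 FPKM (0.851 of the range).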

How the results depend on the processing

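The number of members called was 2 with 4 against 4 libraries. It was 8 with the replicate block, 7 with the block and either other scaling, 1 without the filter on low values (Cd1d1), 1 with the filter of 5 FPKM (B2m, since Cd1d1 was then not tested), 0 within replicates 1 and 2, and 1 to 2 when a library was left out. Over all genes, 2236 were called (1196 higher, 1040 lower in IL-10+ cells). With the replicate block 6083 were called (2312 higher, 3771 lower), with the block and median-of-ratios scaling 5724 (2538 higher, 3186 lower), and 5663 (2551 higher, 3112 lower) with the block and the scaling that leaves out immunoglobulin and mitochondrial genes. Within replicates 1 and 2 alone 1106 were called (786 higher, 320 lower), in a fit of fewer libraries. Leaving out a library gave 1621 to 2055 genes, 991 to 1168 higher and 607 to 954 lower. The scalings moved the median of all genes by 0.026 and 0.029 on the log2 scale. Tapbp turned to 0.015 and 0.018 under the scalings, with and without the block, and leaving out a library it ranged from -0.045 to 0.027. H2-T23 ranged from -0.031 to 0.20, Tap2 from -0.028 to 0.12 and Ctss from -0.14 to 0.032 with a library left out, and Ctss was 0.035 within replicates 3 and 4; the cause was not tested. Cd1d1 kept its call in all fits in which it was tested but the one within replicates 1 and 2 (adjusted p = 0.0563). Depth limits Cd1d1 the most, at 224 to 442 reads a library.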

Other observations

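The class I region also holds genes that no list above contains. H2-K2, H2-T-ps and H2-Q5 are annotated as pseudogenes, H2-Q5 as a polymorphic one. The sequence they share with other genes was not measured. H2-K2, annotated beside H2-K1, had 20.1 ± 4.54 FPKM in IL-10+ cells, against 28.1 ± 6.82 FPKM in IL-10- cells (log2 change -0.46, limma adjusted p = 0.165; 0.00109 with the block), lower in IL-10+ cells in all 4 numbers, while H2-K1 was higher in all 4. H2-T-ps had 18.8 ± 4.23 FPKM in IL-10+ cells, against 12.5 ± 2.64 FPKM in IL-10- cells (adjusted p = 0.0676; 0.000132 with the block). H2-Q5 had 51.4 ± 2.85 FPKM in IL-10+ cells, against 49.1 ± 6.68 FPKM in IL-10- cells (adjusted p = 0.659). Tnf and Lta, cytokine genes that lie between the class II and the Qa stretches, fell by 1.01 and 1.23 on the log2 scale (adjusted p = 0.000866 and 0.00159). Atat1, which acetylates tubulin and lies near H2-T23, rose by 1.23 (adjusted p = 0.000813), the largest rise among the tested coding genes of the region.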
